A study of Mus musculus with 6 samples.

Results

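RNase H2 is the nuclear enzyme that cuts single ribonucleotides out of DNA and degrades RNA paired with DNA. Its catalytic subunit is encoded by Rnaseh2a, and Rnaseh2b and Rnaseh2c encode the accessory subunits that hold the complex together. Rnaseh2a lies on mouse chromosome 8 directly beside Prdx2, the peroxiredoxin gene that was cut with Cas9 in these livers. The genes described here are the 3 RNase H2 subunit genes and 5 genes near Prdx2 on that chromosome, namely Klf1, Gcdh, Gadd45gip1, Hook2 and Farsa. They were taken by gene symbol from the count table, so that 8 of its 52459 genes are described, and all 8 passed the filter on low counts. Rnaseh2a, Klf1 and Gcdh were chosen because they were higher in sgPrdx2 livers in these same data. Their values in this comparison are therefore given as a description without a test.

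Bulk RNA-Seq was available for the livers of 6 male C57BL6J mice of the Alb-Cre/Cas9 F1 generation, in which Cre driven by the albumin promoter switches on Cas9 in hepatocytes. At an age of 4 to 5 weeks, 3 mice received an intravenous AAV8 vector with a control guide RNA (AAV8-U6-sgCtrl, mice 5.1, 7.1 and 7.2) and 3 received the vector with a guide RNA against Prdx2 (AAV8-U6-sgPrdx2, mice 1.1, 1.3 and 3.2). All 6 mice were given 100 mg/kg diethylnitrosamine (DEN) 3 weeks later, followed by 6 months of a choline-deficient high-fat diet (CDAHFD), and were labelled as 8 months old. The comparison of sgPrdx2 with sgCtrl livers asks what changes in a diseased liver when hepatocyte Prdx2 is cut. Other liver cells and hepatocytes that took up no vector keep Prdx2, and the RNA came from whole tissue. In whole tissue, fewer cells of a type and less RNA per cell cannot be told apart.

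The 6 libraries held 37462102 to 56865293 counted reads. Levels are given as reads per 1000000 reads of the scaled library (CPM), on which 3 counts, taken as the limit of detection, stand for 0.0555 to 0.0921 CPM. One library stood apart from the others. In sgPrdx2 liver 3.2, genes with an exon length of up to 1.89 kb had a median level 0.41 above the mean of the other 2 sgPrdx2 livers on the log2 scale, whereas genes of at least 6.98 kb had a median 0.34 below it. The same medians in the other 5 livers lay between -0.21 and 0.12 for short genes and between -0.11 and 0.19 for long ones. The 8 genes are therefore also given without liver 3.2, and so is each list related to them whose split or number of calls moved. All 10 hepatocyte markers were higher in sgPrdx2 livers, and their summed level was 137933 to 184329 CPM against 79312 to 86024 CPM in sgCtrl livers. Albumin (Alb), which defines hepatocytes, made up most of that sum in every liver, with a mean of 117782 CPM in sgPrdx2 and 60214 CPM in sgCtrl livers. Summed markers of lymphocytes and leukocytes (139 to 160 CPM against 267 to 304 CPM) and of stellate cells and fibroblasts (1474 to 1502 CPM against 2017 to 2346 CPM) were lower in every sgPrdx2 liver. Those of macrophages were lower as well (2296 to 3026 CPM against 3314 to 3749 CPM), mostly from Lyz2, which overlapped between groups. Those of cholangiocytes were also lower (1216 to 1389 CPM against 1624 to 1852 CPM), mostly from Spp1. Endothelial sums overlapped (138 to 209 CPM against 184 to 212 CPM). Most of the leukocyte sum came from Itgb2 (mean 90.8 CPM in sgPrdx2 against 189 CPM in sgCtrl livers) and Ptprc (36.3 against 66.6 CPM). Cd8a was also lower without overlap, while the groups overlapped for Cd3e, Cd3g, Cd79a, Ms4a1 and Nkg7. Of the 8 leukocyte markers, 3 were thus lower without overlap, against 17.5% of all genes tested. The stellate and fibroblast sum came mostly from Col3a1 (mean 456 CPM in sgPrdx2 against 705 CPM in sgCtrl livers) and Dcn (468 against 651 CPM). Of those 8 markers, 5 were lower without overlap and none passed an adjusted p of 0.05 in edgeR's test. The groups overlapped for Col1a1, Pdgfrb and Des, and Des had a log2 fold change of 0.03. Fold changes are relative to the median gene: scaling to total counts or to housekeeping genes, in place of the trimmed mean used here, moved the median of all genes from -0.02 to -0.39 or -0.38 on the log2 scale, and 9 of the 10 hepatocyte markers were then higher.

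The neighbourhood was laid out on the mouse genome build GRCm38 with the GENCODE vM21 annotation. Rnaseh2a spans chr8:84956610-84969767 on the minus strand, and Prdx2 spans chr8:84969587-84974834 on the plus strand. The genes point away from each other and their bodies overlap by 181 bases, because 2 of the 10 annotated Rnaseh2a transcripts start inside the Prdx2 body. In exons, 177 bases are shared, which is 5.0% of all Rnaseh2a exon bases. Klf1 (chr8:84901928-84905291, plus strand) lies 64.3 kb from Prdx2 and Gcdh (chr8:84886393-84893921, minus strand) 75.7 kb from it, both on the Rnaseh2a side. Farsa (chr8:84856989-84869257, plus strand) and Gadd45gip1 (chr8:84831522-84835482, plus strand) follow on that side at 100.3 kb and 134.1 kb. Hook2 (chr8:84990603-85003349, plus strand) lies 15.8 kb away on the other side. The remaining subunit genes are on other chromosomes, Rnaseh2b at chr14:62292589-62372992 and Rnaseh2c at chr19:5601873-5607019, both on the plus strand.

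The promoters of the 3 genes chosen for their higher level are shown beside those of Prdx2 and of Farsa, a neighbour whose level did not separate the groups. Each sequence holds 250 bases before and 50 bases from the RefSeq transcription start on build GRCm38.p6, written 5′ to 3′ on the strand of the gene, and capitals mark the motif matches described after them.
Rnaseh2a promoter, chr8:84966027-84966326, minus strand: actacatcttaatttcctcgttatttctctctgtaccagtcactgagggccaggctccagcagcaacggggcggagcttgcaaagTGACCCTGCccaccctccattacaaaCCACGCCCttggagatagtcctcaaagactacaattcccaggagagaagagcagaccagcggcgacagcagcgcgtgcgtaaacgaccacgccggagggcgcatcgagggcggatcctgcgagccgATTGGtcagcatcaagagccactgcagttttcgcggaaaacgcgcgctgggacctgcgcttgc
Klf1 promoter, chr8:84901732-84902031, plus strand: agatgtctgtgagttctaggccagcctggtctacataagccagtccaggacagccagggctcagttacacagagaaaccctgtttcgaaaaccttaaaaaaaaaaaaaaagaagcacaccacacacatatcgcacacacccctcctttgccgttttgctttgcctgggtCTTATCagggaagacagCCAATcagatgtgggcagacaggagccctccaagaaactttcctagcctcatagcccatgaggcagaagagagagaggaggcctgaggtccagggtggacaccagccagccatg
Gcdh promoter, chr8:84893872-84894171, minus strand: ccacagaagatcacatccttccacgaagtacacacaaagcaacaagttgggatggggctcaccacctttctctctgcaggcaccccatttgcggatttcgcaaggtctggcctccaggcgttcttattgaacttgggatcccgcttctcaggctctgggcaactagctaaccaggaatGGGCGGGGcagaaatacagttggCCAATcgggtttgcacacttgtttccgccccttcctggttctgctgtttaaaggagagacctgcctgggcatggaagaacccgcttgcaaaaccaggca
Prdx2 promoter, chr8:84969372-84969671, plus strand: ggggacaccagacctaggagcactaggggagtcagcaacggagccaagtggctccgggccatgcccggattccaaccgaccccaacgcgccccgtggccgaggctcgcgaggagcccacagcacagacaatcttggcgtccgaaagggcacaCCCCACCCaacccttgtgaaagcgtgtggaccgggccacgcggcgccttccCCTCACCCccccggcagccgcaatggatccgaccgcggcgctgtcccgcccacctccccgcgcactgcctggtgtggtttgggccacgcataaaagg
Farsa promoter, chr8:84856736-84857035, plus strand: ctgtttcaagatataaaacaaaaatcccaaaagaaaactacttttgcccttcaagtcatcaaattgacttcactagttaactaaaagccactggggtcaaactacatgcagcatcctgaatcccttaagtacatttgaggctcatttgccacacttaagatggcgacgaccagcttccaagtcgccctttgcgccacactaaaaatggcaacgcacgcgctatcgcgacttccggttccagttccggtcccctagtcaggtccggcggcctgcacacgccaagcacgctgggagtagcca

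Motifs were searched on both strands of these windows. The letters CCNCNCCC, which Krüppel-like factors can bind, were found once in the Rnaseh2a promoter at bases 112 to 119, once in the Gcdh promoter at bases 179 to 186 and 2 times in the Prdx2 promoter. They were not found in the Klf1 and Farsa windows, and 49.5% of 32851 RefSeq promoters hold them. The CCAAT box was found in the promoters of Rnaseh2a (bases 238 to 242), Klf1 (bases 187 to 191) and Gcdh (bases 202 to 206), and in 37.4% of all promoters. The letters GATAAG, an erythroid GATA motif, stood at bases 170 to 175 of the Klf1 window alone among the 5 shown, against 7.44% of all promoters. The antioxidant response core TGACNNNGC stood at bases 86 to 94 of the Rnaseh2a window alone among the 5, against 12.4% of all promoters. An E2F motif (TTTCCCGC, TTTCGCGC, TTTGCCGC or TTTGGCGC), found in 2.26% of all promoters, was in none of the 5 windows. These matches describe letters and say nothing about binding in these livers.

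Prdx2 itself, the targeted gene, was read first. Its level was 109, 117 and 132 CPM in sgCtrl livers 5.1, 7.1 and 7.2, and 99.0, 112 and 149 CPM in sgPrdx2 livers 1.1, 1.3 and 3.2. The groups overlapped, and the log2 fold change of sgPrdx2 against sgCtrl livers was 0.01 with a standard error (SE) of 0.18 (adjusted p = 0.983, edgeR's quasi-likelihood test), or -0.17 (SE 0.13) without liver 3.2. A gene cut by Cas9 can still be transcribed, so Prdx2 RNA gave no check of the labels. All 3 genes chosen for their higher level therefore lie beside a gene whose own RNA level did not separate the groups.

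Rnaseh2a, which supplies the active site of RNase H2, was higher in every sgPrdx2 liver. Its level was 24.9, 24.5 and 28.0 CPM in sgCtrl livers 5.1, 7.1 and 7.2, and 65.1, 70.1 and 88.6 CPM in sgPrdx2 livers 1.1, 1.3 and 3.2. The groups did not overlap, and the lowest sgPrdx2 liver was above 2 times the highest sgCtrl liver. The means were 25.8 ± 1.96 CPM and 74.6 ± 12.4 CPM (SD, n = 3 each), a 2.89-fold difference with a log2 fold change of 1.53 (SE 0.15). Without liver 3.2 the log2 fold change was 1.40 (SE 0.10). Behind these values stood 1088 to 1474 reads per sgCtrl liver and 2857 to 3792 reads per sgPrdx2 liver, so that counting error is small beside the spread between mice. Of the stretches of 50 bases in Rnaseh2a transcripts, 12.8% also occur in transcripts of other genes, Prdx2 among them. The ratio of Rnaseh2a to Prdx2 counts was 0.210 to 0.227 in sgCtrl livers and 0.594 to 0.658 in sgPrdx2 livers.

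Rnaseh2b, an accessory subunit, did not follow Rnaseh2a. Its level was 14.8, 11.6 and 15.8 CPM in sgCtrl livers and 13.5, 13.7 and 21.9 CPM in sgPrdx2 livers, in the same order of mice. The groups overlapped, with liver 3.2 alone above all sgCtrl livers, and the log2 fold change was 0.21 (SE 0.22, adjusted p = 0.576 by edgeR's quasi-likelihood test). Without liver 3.2 it was -0.04 (SE 0.15).

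Rnaseh2c, the other accessory subunit, lay between them. Its level was 13.7, 16.9 and 15.9 CPM in sgCtrl livers and 22.7, 20.2 and 43.5 CPM in sgPrdx2 livers. The groups did not overlap, but liver 3.2 reached about 2 times the level of the other sgPrdx2 livers. The log2 fold change of 0.89 (SE 0.28) missed the threshold of 0.05 in edgeR's quasi-likelihood test (adjusted p = 0.112) and passed it in DESeq2 (adjusted p = 0.0237) and in edgeR's test without a filter on low counts (adjusted p = 0.0489). Without liver 3.2 it was 0.48 (SE 0.12, edgeR's adjusted p = 0.077), and over all alternatives the adjusted p ranged from 0.0237 to 0.274. Rnaseh2c is also the shortest of the 3 genes in exon length (1.72 kb, against 3.51 kb for Rnaseh2a and 6.24 kb for Rnaseh2b). When each liver's trend against exon length was removed, a step chosen after seeing the data, its log2 fold change was 0.69 (SE 0.21). Of its exon bases, 24.8% are shared with Kat5 on the opposite strand, and reads there could not be told apart without knowing the strand setting of the counting.

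**Figure D1:**
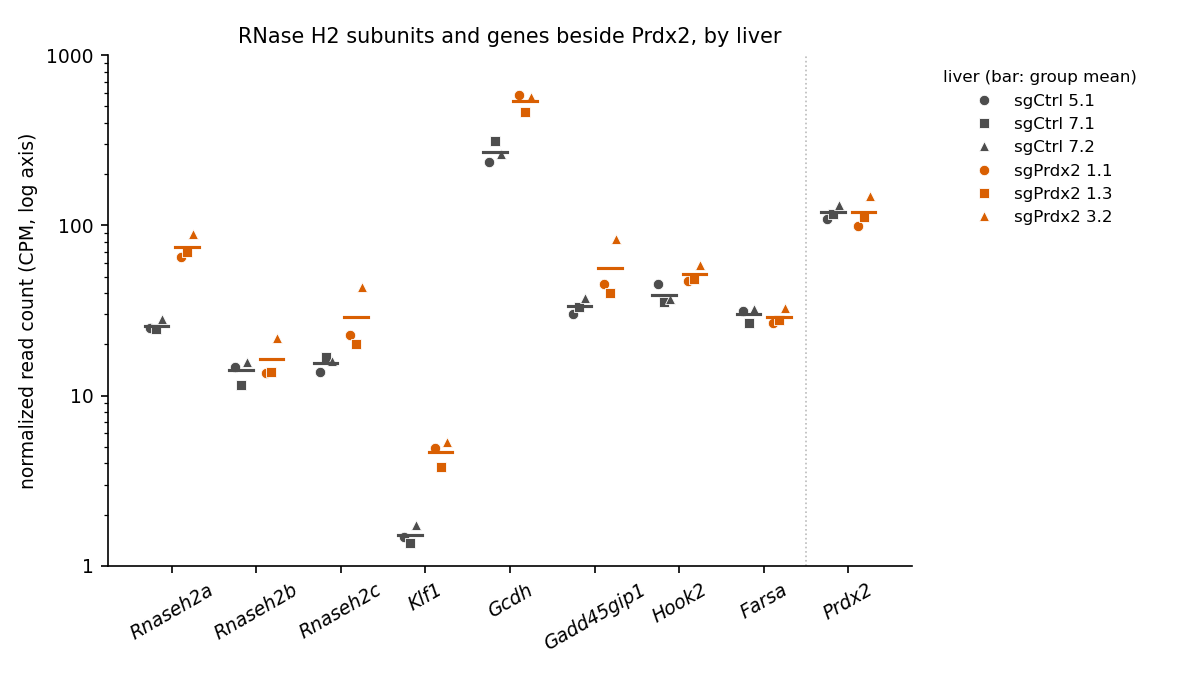
Normalized read count (CPM, log axis) of the 8 genes and of Prdx2 (right of the dotted line), with 1 point per liver, sgCtrl in grey and sgPrdx2 in orange, and bars at the group means. Rnaseh2a, Klf1 and Gcdh separate the groups by the widest gaps, while Rnaseh2b, Farsa and Prdx2 overlap and liver 3.2 is the highest sgPrdx2 liver for all genes but Gcdh.

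Because the subunits form a single complex, the balance between them was also read within each liver, where library scaling cancels out. In sgCtrl livers Rnaseh2a had 1.68, 2.11 and 1.77 reads for each Rnaseh2b read, and in sgPrdx2 livers it had 4.83, 5.12 and 4.04. The ratio of Rnaseh2a to Rnaseh2c reads was 1.81, 1.45 and 1.76 in sgCtrl livers and 2.86, 3.47 and 2.04 in sgPrdx2 livers. Neither ratio overlapped between the groups, and the mean log2 differences were 1.33 and 0.71, given without a test since Rnaseh2a was chosen on this contrast. The ratio of Rnaseh2b to Rnaseh2c reads was 1.08, 0.688 and 0.992 in sgCtrl livers and 0.592, 0.678 and 0.504 in sgPrdx2 livers. It was lower in every sgPrdx2 liver by a log2 difference of -0.62, with p = 0.1 in a two-sided exact permutation test, the smallest p that 3 livers against 3 allow. This difference was -0.51 without liver 3.2. A trend against exon length does not cancel in a ratio of a 6.24 kb gene (Rnaseh2b) to a 1.72 kb gene (Rnaseh2c). With each liver's trend removed, log2 fold changes were 0.34 (SE 0.26) for Rnaseh2b and 0.69 (SE 0.21) for Rnaseh2c. Without that step they were 0.21 and 0.89, which lie further apart. The ratio was not tested with the trend removed.

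**Figure D2:**
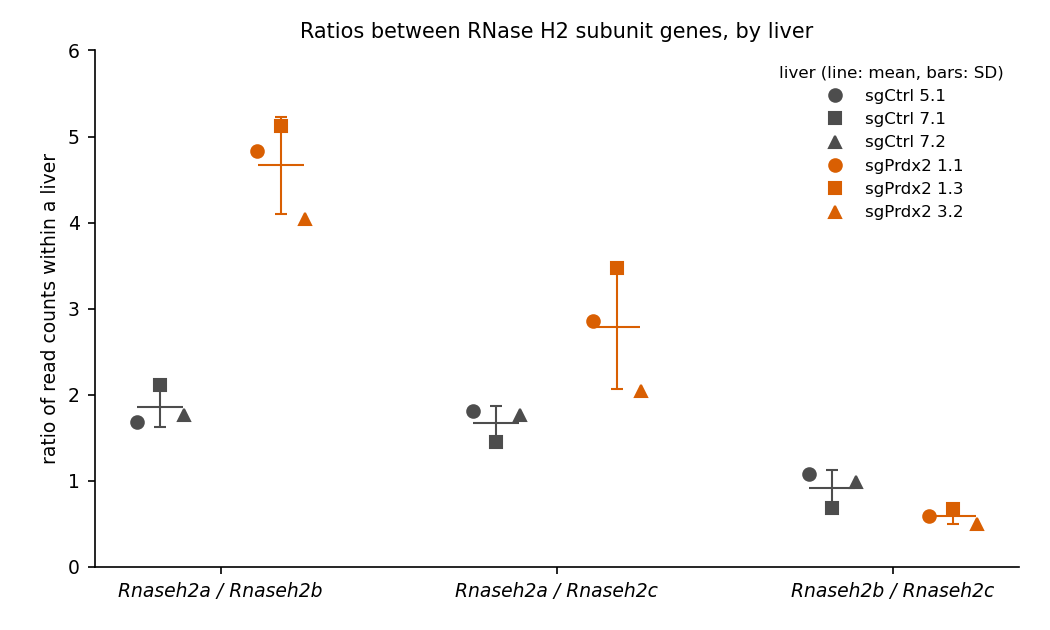
Ratio of read counts between pairs of RNase H2 subunit genes within each liver (points), with the group mean (line) and SD (bars) for 3 sgCtrl livers in grey and 3 sgPrdx2 livers in orange. Rnaseh2a to Rnaseh2b was 1.68 to 2.11 in sgCtrl livers and 4.04 to 5.12 in sgPrdx2 livers, whereas Rnaseh2b to Rnaseh2c was lower in every sgPrdx2 liver.

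Genes that act around RNase H2 did not share the higher level of Rnaseh2a. Of 18 genes that complete ribonucleotide repair or remove RNA paired with DNA, 6 were higher and 12 lower in sgPrdx2 livers, none passed the edgeR test at an adjusted p of 0.05, and the median log2 fold change was -0.19 against -0.02 over all genes tested. At an unadjusted p under 0.05 there were 5, and DESeq2 called 1, against 4241 and 2118 of all 17032 genes tested. Without liver 3.2 the split was 8 higher to 10 lower. The smallest p-values belonged to Pcna, the sliding clamp of DNA synthesis, at -0.53 (SE 0.14, edgeR adjusted p = 0.0752) and to the exonuclease gene Exo1 at -1.02 (SE 0.29, edgeR adjusted p = 0.0893). Rnaseh1, which encodes the other RNase H of mammalian cells, had 9.94 to 10.9 CPM in sgCtrl and 10.1 to 10.5 CPM in sgPrdx2 livers.

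Loss of RNase H2 is known to cause Aicardi-Goutières syndrome, in which the DNA sensor cGAS and its partner STING drive interferon-stimulated genes. Of 17 genes listed for that syndrome and pathway, 16 were tested, and 15 of these were lower and 1 higher in sgPrdx2 livers, with a median log2 fold change of -0.58. At an unadjusted p under 0.05 there were 9, and DESeq2 called 6, against 4241 and 2118 of all 17032 genes tested. STING itself (Tmem173) was the only one that passed the edgeR test, against 1.54% of all genes tested in that direction, at 25.9 ± 2.05 CPM in sgCtrl and 17.1 ± 0.85 CPM in sgPrdx2 livers (SD, n = 3 each) and a log2 fold change of -0.60 (SE 0.12, adjusted p = 0.0455). Its adjusted p was 0.0599 without sgCtrl liver 7.1, where 3 other genes of the list passed (Ifit1, Isg15 and Oasl2, named after their values were seen), and 0.0944 to 0.168 without sgCtrl liver 5.1 or 7.2 or sgPrdx2 liver 1.1 or 1.3 (edgeR). Trex1, all of whose exon bases are shared with another gene on the same strand, was listed at 0 counts in every liver. The summed level of the list overlapped between groups, at 661 to 1503 CPM in sgCtrl and 612 to 768 CPM in sgPrdx2 livers. Immune cells express these genes as well, and the lower summed leukocyte and macrophage markers given above moved with them in the same direction. Their part in this difference was not tested.

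Klf1, the Krüppel-like factor that directs red cell genes, had the lowest CPM of the 8 genes and was higher in every sgPrdx2 liver. Its level was 1.48, 1.36 and 1.73 CPM in sgCtrl livers and 4.92, 3.83 and 5.31 CPM in sgPrdx2 livers, from 65, 61 and 91 reads and 216, 207 and 173 reads. The groups did not overlap, and the lowest sgPrdx2 liver was above 2 times the highest sgCtrl liver. The 3.06-fold difference had a log2 fold change of 1.61 (SE 0.21) and was 1.53 (SE 0.21) without liver 3.2. With each liver's trend against exon length removed, the log2 fold change was 1.43 (SE 0.18). No exon base of Klf1 is shared with another counted gene, and no stretch of 50 bases recurs in another gene's transcripts.

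Red cell markers did not move with Klf1 as a group. Of 24 listed, 23 were in the count table and 13 were tested, with 3 higher, 10 lower, none past the edgeR threshold and a median log2 fold change of -0.22. At an unadjusted p under 0.05 there were 4, and DESeq2 called 2, against 4241 and 2118 of all 17032 genes tested. The beta-globin gene Hbb-bs was at 64.2 to 83.5 CPM in sgCtrl and 51.1 to 76.5 CPM in sgPrdx2 livers. Alas2, the red cell enzyme that starts haem synthesis, was at 41.2 to 87.8 CPM and 101 to 134 CPM, with a log2 fold change of 1.0 (SE 0.28, edgeR adjusted p = 0.0872). Nfe2, a red cell and platelet factor, had a log2 fold change of 0.94 (SE 0.27, edgeR adjusted p = 0.0902). Both missed the threshold, and neither overlapped between groups. Of the 13 tested, 3 were higher and 4 lower without overlap, against 16.7% and 17.5% of all genes tested. Among those lower were Hbb-bt at -0.46 (SE 0.15) and Hba-a1 at -0.33 (SE 0.15). Gata1, the factor that defines the red cell lineage, stayed at or below 0.0914 CPM in every liver, near the limit of detection, and Kel was listed at 0. The summed level of the list was 173 to 214 CPM in sgCtrl and 205 to 276 CPM in sgPrdx2 livers, which overlap.

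Other Krüppel-like factors did not share the level of Klf1 either. Of 16 further family members 14 were tested, with 2 higher, 12 lower and none past the edgeR threshold, and a median log2 fold change of -0.19. In that family 4 had an unadjusted p under 0.05 and DESeq2 called 3, against 4241 and 2118 of all 17032 genes tested. Without liver 3.2 the split was 5 higher to 9 lower. Klf15, a liver regulator of amino acid breakdown, was highest at 0.85 (SE 0.21, edgeR adjusted p = 0.0660), and Klf6 was at -0.73 (SE 0.20, edgeR adjusted p = 0.0864).

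Gcdh encodes glutaryl-CoA dehydrogenase, a mitochondrial enzyme on the shared last stretch of lysine and tryptophan breakdown, and was the most abundant of the 8 genes. Its level was 237, 312 and 262 CPM in sgCtrl livers and 587, 463 and 567 CPM in sgPrdx2 livers. The groups did not overlap, and the means of 270 ± 38.1 CPM and 539 ± 66.8 CPM (SD, n = 3 each) differed 1.99-fold. The log2 fold change was 1.0 (SE 0.17) and was 0.97 (SE 0.17) without liver 3.2. The ratio between the group means of the summed hepatocyte markers was 2.00, next to 1.99 for Gcdh, 2.89 for Rnaseh2a and 3.06 for Klf1. That sum is mostly albumin (1.96-fold). Single hepatocyte markers ran from 1.23-fold (Hnf4a) to 2.65-fold (Apoc3), and the groups overlapped for Tat (1.53-fold). The part of the hepatocyte markers in these differences was not tested.

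Genes of the pathway around Gcdh lay on the same side as Gcdh. All 20 other genes of lysine and tryptophan breakdown were higher in sgPrdx2 livers, with a median log2 fold change of 0.65, and 5 of them (25.0%) passed the edgeR test against 1.79% of all genes tested in that direction. Pipox, which oxidises the lysine product pipecolic acid, had the smallest p at 1.27 (SE 0.15, edgeR adjusted p = 0.0313). Haao (1.36, SE 0.25, edgeR adjusted p = 0.0409), Afmid (1.03, SE 0.18, edgeR adjusted p = 0.0385) and Aadat (1.09, SE 0.21, edgeR adjusted p = 0.0448) act in tryptophan breakdown, Aadat in that of lysine too. The fifth was Aldh7a1 of the lysine branch, at 1.08 (edgeR adjusted p = 0.0457). Without liver 3.2 all 20 remained higher and 4 passed, and 17 of 20 were higher with total-count or housekeeping scaling, where 4 and 1 passed. Without any one of sgCtrl livers 5.1 and 7.2 or sgPrdx2 livers 1.1 and 1.3, 0 genes of the whole table passed the edgeR test. The acyl-CoA dehydrogenases, the enzyme family of Gcdh, showed the same direction in 11 of 11 other members with a median of 0.53 (8 of 11 with total-count or housekeeping scaling), and Acad8 of valine breakdown passed at 0.60 (SE 0.12, edgeR adjusted p = 0.0466). Acad8 missed the threshold with total-count scaling (adjusted p = 0.225), with housekeeping scaling (0.347) and without sgCtrl liver 7.1 (0.071, edgeR), where no other member passed. Liver cells are the main site of these pathways, and hepatocyte markers moved with them, with a median log2 fold change of 0.96 and 6 of 10 past the threshold. Without liver 3.2 all 10 were higher and 2 passed, 1 passed without sgCtrl liver 7.1, and 2 passed with housekeeping scaling.

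The remaining 3 genes beside Prdx2 serve general cell functions, and none of them passed the test. Gadd45gip1, also called CRIF1, encodes a protein of the mitochondrial ribosome. Its level was 30.3, 33.0 and 37.2 CPM in sgCtrl livers and 45.4, 40.3 and 82.8 CPM in sgPrdx2 livers. The groups did not overlap, and liver 3.2 again stood far above the other 2 sgPrdx2 livers. The log2 fold change was 0.74 (SE 0.26, adjusted p = 0.141 by edgeR's quasi-likelihood test), was 0.37 (SE 0.12) without liver 3.2, and had an adjusted p of 0.0515 to 0.319 over all alternatives. Of the 3 Gadd45 genes proper, stress genes whose products it can bind, none passed in edgeR or DESeq2. Among them 1 had an unadjusted p under 0.05, against 4241 of all 17032 genes tested. Their median was -0.09, or -0.42 without liver 3.2, with Gadd45a at -0.54 (SE 0.20, edgeR adjusted p = 0.153) and Gadd45g at 0.56 (SE 0.42, edgeR adjusted p = 0.433).

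Hook2, an adaptor between cargo and the microtubule motor dynein, was at 45.1, 35.4 and 37.1 CPM in sgCtrl livers and at 47.1, 48.4 and 58.9 CPM in sgPrdx2 livers. The groups just missed overlapping, with 45.1 CPM the highest sgCtrl and 47.1 CPM the lowest sgPrdx2 value. The log2 fold change was 0.39 (SE 0.15, adjusted p = 0.159 by edgeR's quasi-likelihood test) and 0.29 (SE 0.12) without liver 3.2. Of 10 other Hook adaptors and partners, 5 were higher and 5 lower (6 and 4 without liver 3.2) with a median of 0.01 and none past the threshold in edgeR, in DESeq2 or at an unadjusted p under 0.05, the smallest p-values being those of the dynein heavy chain gene Dync1h1 (-0.22, SE 0.13, edgeR adjusted p = 0.308) and of Fam160b1 (0.28, SE 0.17, edgeR adjusted p = 0.331).

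Farsa, the alpha subunit of the enzyme that charges tRNA with phenylalanine, was at 31.3, 26.8 and 32.2 CPM in sgCtrl livers and at 26.7, 27.9 and 32.6 CPM in sgPrdx2 livers. The groups overlapped almost completely, and the log2 fold change was -0.05 (SE 0.13, adjusted p = 0.831 by edgeR's quasi-likelihood test), or -0.13 (SE 0.11) without liver 3.2. The 20 other aminoacyl-tRNA synthetases were as evenly split, with 9 higher and 11 lower (8 and 12 without liver 3.2), none past the edgeR threshold and a median of -0.01. At an unadjusted p under 0.05 there were 2, and DESeq2 called 1, against 4241 and 2118 of all 17032 genes tested. The mitochondrial phenylalanine enzyme Fars2 (0.58, SE 0.17, edgeR adjusted p = 0.0966) and the isoleucine enzyme Iars (-0.35, SE 0.12, edgeR adjusted p = 0.119) had the smallest p-values.

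Of the 8 genes, 3 passed an adjusted p of 0.05 in the fit over all genes, against 3.33% of the 17032 genes tested. With housekeeping scaling 2 passed, and Gcdh was the one that did not. These were Rnaseh2a, Klf1 and Gcdh, which were chosen for their higher level, so nothing is read from that count. Of the other 5, none passed in edgeR. At an unadjusted p under 0.05 there were 3, and DESeq2 called 1 (Rnaseh2c), against 4241 and 2118 of all 17032 genes tested. The 3 (Rnaseh2c, Gadd45gip1 and Hook2) were also higher in sgPrdx2 livers without overlap between groups, as were 16.7% of all genes tested (34.2% did not overlap in either direction). Those 5 were picked with results of these data known, and the count is not independent evidence.

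The region was therefore also read by position alone. Of 55 annotated genes with a body within 500 kb of Prdx2, 54 were in the count table and 35 were tested. Besides Rnaseh2a, Klf1 and Gcdh, none of the other 32 passed in edgeR or DESeq2. Among them 4 had an unadjusted p under 0.05, against 4241 of all 17032 genes tested. Of those 32, 21 were higher (65.6%, against 48.3% of all genes tested) and 11 lower. Their log2 fold changes ran from -0.32 to 0.74 with a median of 0.14. With total-count or housekeeping scaling the split was 6 higher to 26 lower. The median was then -0.24 or -0.25, against -0.39 or -0.38 over all genes. Without liver 3.2, the split was 17 higher to 15 lower and the median 0.02. Over all 901 tested genes of chromosome 8 other than Prdx2 the median was 0.01, and 33 (3.66%) passed, close to the share over all genes.

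The tested genes that lie between Rnaseh2a and Klf1 did not share their higher level. On the Rnaseh2a side, the 6 nearest tested genes were Rnaseh2a, Mast1, Dnase2a, Klf1, Gcdh and Syce2. Mast1, a kinase gene 32.2 kb away with only 25 to 39 reads per liver, was at 0.15 on the log2 scale (SE 0.31, edgeR adjusted p = 0.794). Dnase2a, the lysosomal DNase 46.7 kb away, was at 0.08 (SE 0.22, edgeR adjusted p = 0.843). Both lie between Rnaseh2a and Klf1. Syce2, a meiosis gene whose body overlaps that of Gcdh, was at -0.16 (SE 0.28, edgeR adjusted p = 0.747). On the other side the 6 nearest were Junb, Hook2, Asna1, Trir, Tnpo2 and A230103J11Rik. Junb, a subunit of the AP-1 transcription factor whose body overlaps Prdx2, was at 0.43 (SE 0.31, edgeR adjusted p = 0.421). Asna1 (0.26, SE 0.20), Trir (0.31, SE 0.20), Tnpo2 (-0.25, SE 0.20) and A230103J11Rik (-0.32, SE 0.28) had edgeR adjusted p-values of 0.360 to 0.50. Chosen after their values were seen, Wdr83, Wdr83os and Nacc1 were the only other genes of the window without overlap, at log2 fold changes of 0.31, 0.40 and -0.25. Of the 32 window genes besides Rnaseh2a, Klf1 and Gcdh, 4 were higher and 1 lower without overlap. Over all genes tested these shares were 16.7% and 17.5%.

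**Figure D3:**
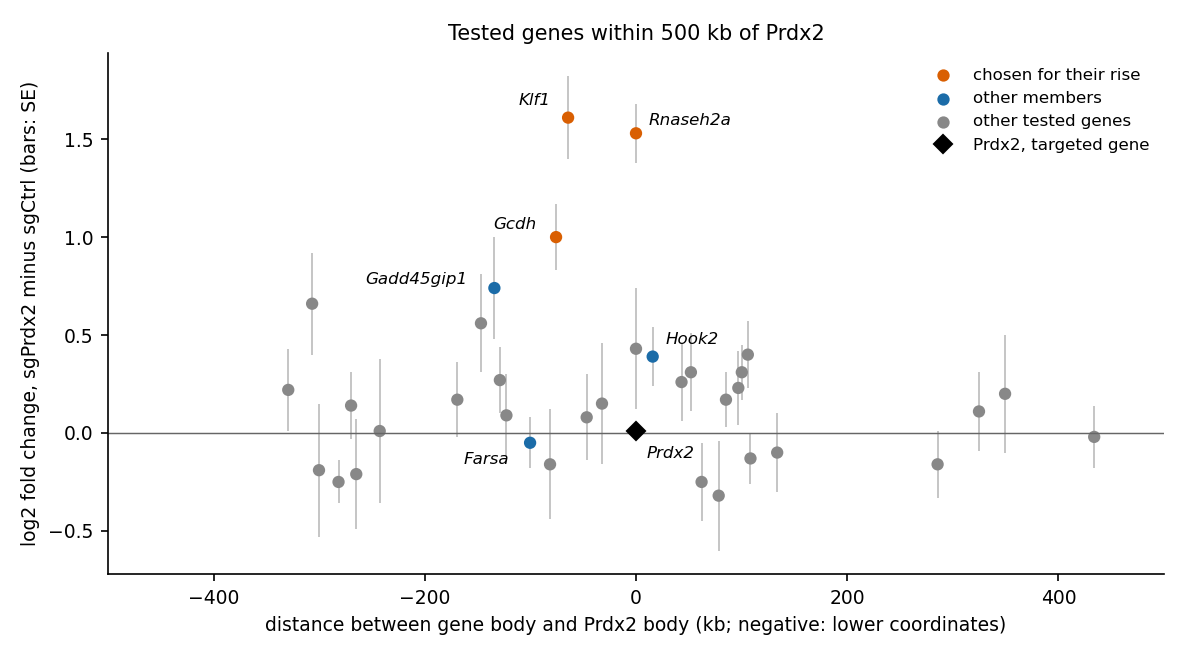
Log2 fold change of sgPrdx2 against sgCtrl livers (points, bars are SE) for the 35 tested genes within 500 kb of Prdx2, against the distance in kb between each gene body and the Prdx2 body. Klf1 (1.61), Rnaseh2a (1.53) and Gcdh (1.0) stand above the other genes, which lie between -0.32 and 0.74 and are found between them as well.

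Compared with each other as levels per kb of exon, the 8 genes kept much of their order. In sgCtrl livers Gcdh (98.1 CPM per kb) stood above Gadd45gip1 (13.4), Hook2 (9.86), Rnaseh2c (9.04), Rnaseh2a (7.35), Farsa (6.63), Rnaseh2b (2.25) and Klf1 (0.996). Hook2 and Rnaseh2c overlapped over the 3 livers, as did Rnaseh2a and Farsa, and all other neighbours in that order were separate. In sgPrdx2 livers Gcdh (196 CPM per kb) was again highest, and Rnaseh2a (21.3) stood next to Gadd45gip1 (22.5), with Rnaseh2c (16.8) and Hook2 (12.9) after them in an overlapping series. Farsa (6.40) followed, and Klf1 (3.06) and Rnaseh2b (2.62) overlapped at the low end. Among the subunits, the Rnaseh2a level per kb was below that of Rnaseh2c in sgCtrl livers and above it in sgPrdx2 livers, with overlapping values in the latter.

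Across the 6 livers the log2 levels of Rnaseh2a, Klf1 and Gcdh ran together, with Pearson's r of 0.98 between Rnaseh2a and Klf1, 0.94 between Rnaseh2a and Gcdh and 0.95 between Klf1 and Gcdh. These 6 points form the 2 groups on which the genes were chosen and share library and depth, so the values only describe. Against Rnaseh2a, r was 0.84 for Rnaseh2c, 0.50 for Rnaseh2b, 0.16 for Prdx2 and -0.05 for Farsa. The genes most like Rnaseh2a over these livers were Slc43a1 (0.997), Ttll13 (0.997) and Cfap126 (0.996), those most like Klf1 were Xylb (0.997), Cyp3a13 (0.995) and Sdhd (0.995), and those most like Gcdh were Dhrs11, Aldh8a1 and Rnf187 (0.998 each). None of these 9 genes lies on chromosome 8.

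**Figure D4:**
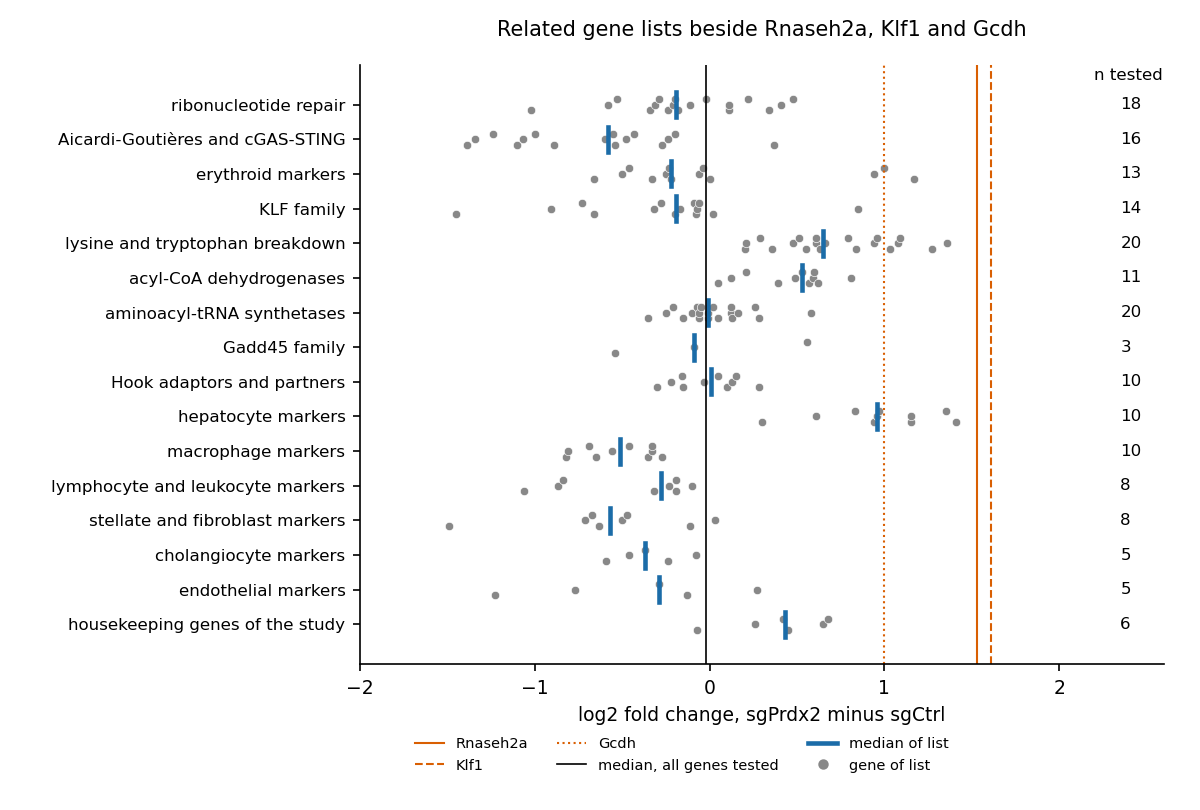
Log2 fold change of sgPrdx2 against sgCtrl livers for each tested gene (grey points) of the lists related to the 8 genes and of the marker lists, with list medians in blue, the median of all genes tested in black and the values of Rnaseh2a, Klf1 and Gcdh as orange lines. Lysine and tryptophan breakdown (median 0.65), acyl-CoA dehydrogenases (0.53) and hepatocyte markers (0.96) lie on the side of Gcdh, while the ribonucleotide repair (-0.19), red cell (-0.22) and Krüppel-like factor (-0.19) lists centre below 0.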

How the data were processed

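Liver RNA-Seq of 3 sgCtrl and 3 sgPrdx2 mice was analysed, grouped by the guide RNA named in the sample labels. The authors deposited whole-number counts of reads per gene and liver without normalization. The submitters' processing notes name HISAT2, HTSeq, DESeq2 and the build GRCm38, while versions, annotation and the strand setting are not given in the sources used here. A deposited table of the authors' own DESeq2 comparison (mean signals, fold changes, scores, p-values) was not used.

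The count table was fitted with edgeR 4.0.16 under R 4.3.3. Genes kept by filterByExpr (minimum count 10) were normalized by TMM (factors 0.805 to 0.951 in sgPrdx2 and 1.12 to 1.17 in sgCtrl livers) and tested by the quasi-likelihood test on all 6 livers without covariates, with Benjamini-Hochberg adjustment over all 17032 genes and calls at an adjusted p under 0.05. The biological coefficient of variation was 0.213. The fits were tested on simulated data. Each standard error was obtained by dividing the log2 fold change by the root of its F value. CPM are counts per 1000000 reads of the TMM-scaled library. Library totals set counting error only, and p-values weigh the group difference against the spread between these mice.

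Gene positions and exon lengths came from GENCODE vM21 and promoters from RefSeq (GRCm38.p6), which matched 7 of the 8 genes (not Rnaseh2b) and Prdx2. Alternatives were RLE, upper-quartile, total-count and housekeeping scaling (6 genes), DESeq2 1.42.0, no filter or 10 counts in every liver, an adjusted p under 0.01, other windows, a prior of 2 counts for ratios and leaving out each liver. Removal of each liver's trend against exon length (lowess, span 0.3) was added after seeing the data. The 8 genes and all lists were chosen with earlier results of these data known. The genes named are the 8, Prdx2, the 6 nearest tested genes on either side of it, called genes of each list (the 4 with the smallest p where there are more, otherwise the 2 with the smallest p) and the 3 genes most like each of Rnaseh2a, Klf1 and Gcdh. Other genes are named as context. One result on a gene overlap is not reported here.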

Additional observations from a re-analysis of the deposited data

How the results depend on the processing

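With RLE scaling and with 10 counts in every liver, the 8 genes and Prdx2 kept their direction and their side of the threshold, while calls over the whole table went to 568 and 614 and calls in marker lists to 10 and 8. Libraries differed in composition, so that under total-count and housekeeping scaling the median of all genes moved to -0.39 and -0.38. Rnaseh2a then stood at 1.15 under both, Klf1 at 1.23 and 1.24, Gcdh at 0.62 under both, Rnaseh2b at -0.18 and -0.19 and Prdx2 at -0.37 and -0.38. Relative to that median Rnaseh2a kept 1.53 to 1.55, Klf1 1.62 to 1.63 and Gcdh 1.0 to 1.01. Prdx2 was at -0.00 with upper-quartile scaling and with no filter and at -0.04 with the length trend removed, where Farsa was at 0.00. Rnaseh2c passed the threshold with DESeq2 (0.91, adjusted p = 0.0237) and with no filter (0.87, edgeR adjusted p = 0.0489).

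Genes called over the whole table numbered 567, and 3247 with total counts (206 higher, 3041 lower), 989 with housekeeping scaling (70 higher, 919 lower), 2118 with DESeq2, 1128 with no filter and 0 at an adjusted p under 0.01, where 4241 genes had an unadjusted p under 0.05 in the edgeR test. Within 500 kb of Prdx2, 5 were called with total counts and 2 with housekeeping scaling, where Gcdh was not called. Pathway lists had 7 calls, and 30 with total counts, 30 with DESeq2, 16 with no filter and 12 with the length trend removed. Marker lists had 10, and 27 with total counts, 19 with housekeeping scaling, 22 with DESeq2, 17 with no filter and 16 with the length trend removed.

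Leaving out each liver in turn gave 0 to 619 edgeR calls in all, with 0 without sgCtrl livers 5.1 or 7.2 or sgPrdx2 livers 1.1 or 1.3 (3114 to 4436 genes at an unadjusted p under 0.05 over the 6 fits), 0 to 3 within 500 kb, 0 to 7 in pathway lists and 0 to 9 in marker lists. Log2 fold changes ranged over 1.40 to 1.62 for Rnaseh2a, -0.04 to 0.34 for Rnaseh2b, 0.48 to 1.11 for Rnaseh2c, 1.53 to 1.76 for Klf1, 0.91 to 1.11 for Gcdh, 0.37 to 0.95 for Gadd45gip1, 0.29 to 0.50 for Hook2, -0.13 to 0.01 for Farsa and -0.17 to 0.13 for Prdx2. The log2 difference of the Rnaseh2a to Rnaseh2b ratio ranged over 1.26 to 1.43, that of Rnaseh2a to Rnaseh2c over 0.54 to 0.92 and that of Rnaseh2b to Rnaseh2c over -0.82 to -0.49. No paired analysis was possible because the groups share no mouse number. Depth limits Klf1 most, at 61 to 216 reads a liver, and the causes of these changes were not tested.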
